A study of Mus musculus with 16 samples.

Results

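The genes described here encode hydrolases and membrane proteins of the lysosome: 32 genes, of 55487 in the series table, taken by symbol from a fixed list of names. By role they are 8 membrane proteins, 7 enzymes of glycosaminoglycan breakdown, 6 enzymes or cofactors of sphingolipid breakdown, 5 enzymes that remove sugars from glycogen and glycoproteins, 2 lipases of lipid esters and 4 proteins of protein processing. Cathepsins and subunits of the vacuolar proton pump were left out of the list by choice. All 32 were found and all 32 passed the filter on low counts, under which 18565 genes were tested. RNA came from the right hippocampus of female mice perfused with saline at 9.5 months (given also as 40 weeks), and the groups are a cross of the PS19 tau line with mice lacking Ch25h. PS19 mice carry human MAPT of the 1N4R isoform with the P301S mutation, expressed from the prion protein (PrP) promoter. Ch25h encodes cholesterol 25-hydroxylase, which makes the oxysterol 25-hydroxycholesterol. The groups, with 4 libraries each, are wild type (WT, neither allele), Ch25h knockout without the transgene (CKO), PS19 with Ch25h intact (T), and PS19 with Ch25h knocked out (TCKO). No source used here names the strain background. The labels number the replicates but do not state that each is its own mouse. The p-values therefore set genotype differences against the scatter among these libraries, and whether that is scatter among mice is not known.

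Lysosomes are acidic organelles in which proteins, sugars, lipids and glycosaminoglycans brought in by endocytosis, phagocytosis or autophagy are taken apart. Many of its enzymes each cleave a particular bond, and inherited loss of a single enzyme leads to a storage disease that often affects the brain. In brain tissue phagocytic microglia are rich in lysosomal proteins, while neurons and astrocytes also depend on the same enzymes. Some of these genes hold the palindrome CACGTG near their start site, which transcription factors of the TFEB and TFE3 family can bind.

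Library totals ran from 15064309 to 34348284 reads. Ch25h was at most 0.0819 CPM in every library labelled CKO or TCKO and at least 0.581 CPM in every WT and T library. CPM is the count scaled to a common library size with TMM normalization. Mapt stood at 329 to 386 CPM in the libraries without the transgene and at 665 to 1138 CPM in those with it. Prnp, the mouse prion protein gene, stood at 780 to 1061 CPM without the transgene and at 1590 to 2475 CPM with it. Mapt was higher in TCKO than in T by 0.36 ± 0.1 on the log2 scale (SE, edgeR quasi-likelihood test, adjusted p = 0.0321). Choroid plexus markers summed to 7177 CPM in WT replicate 1 and 7446 CPM in T replicate 4, against at most 434 CPM in the other 14 libraries, so a further fit, chosen after seeing the data, left both out. Markers of hippocampal neurons were present in every library (827 to 1700 CPM summed over 8 genes).

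In WT hippocampus the 32 genes together made up 2248 ± 151 TPM (SD, n = 4 libraries), where TPM is a relative abundance corrected for transcript length. Psap alone was 32.8% of that sum and Laptm4a 17.5%. Psap, which encodes the precursor of the saposins that present sphingolipids to their hydrolases, stood at 790, 748, 630 and 780 TPM in the WT libraries. Laptm4a, a small membrane protein of late endosomes and lysosomes, followed at 362 to 415 TPM, with no overlap with Psap. Gaa (160 TPM), Lgmn (134 TPM), Ppt1 (91.4 TPM) and Lamp2 (91 TPM) came next; in WT the libraries of Gaa overlapped those of Lgmn, and those of Ppt1 overlapped those of Lamp2. At the other end were Manba (3.41 TPM), Naglu (2.54 TPM) and Sgsh (2.18 TPM). The summed level was 2122 ± 168 TPM in CKO, 3200 ± 69.4 TPM in T and 2463 ± 351 TPM in TCKO. T libraries ran from 3102 to 3263 TPM, above every library of the other genotypes, whose highest was a TCKO library at 2820 TPM. TCKO had the widest spread, from 2070 to 2820 TPM. Without Psap the sums were 1511 ± 93.1 TPM in WT and 2474 ± 91.7 in T, with CKO at 1449 ± 63 and TCKO at 1726 ± 252. These are descriptions of the libraries and carry no test.

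Promoter sequence was at hand for 30 of the 32 genes, all but Galns and Asah1, as 300 bases per start site (250 before and 50 from the start on) from RefSeq on GRCm38.p6. Each was searched for CACGTG and for TCACGTGA; both read the same on either strand, and the second contains the first. CACGTG was found in 9 of the 30 genes (30%), against 8.09% of the 27025 genes in the same table. TCACGTGA was found in 3 of 30 (10%), against 1.12% of all genes. Of the genes that were called higher in T against WT, 5 of 20 held CACGTG (25.0%), and of those not called, 4 of 10 (40.0%). TCACGTGA was held by 1 of the 20 genes called higher, Cln3, and by 2 of the 10 not called, Mcoln1 and Gla. A match is a string of letters in this window and says nothing about binding. The 6 sequences are printed for comparison with the expression values, 5′ to 3′ on the strand of the gene, in lower case with each match in capitals. The first 4 hold the string: Lamp1 has 4 copies, the most of any listed gene, Naglu had the largest rise of the 9 genes with the string, and Mcoln1 and Gla hold the longer string but were not called. The last 2, Cd68 and Grn, hold none.
Lamp1, chr8:13158911-13159210, plus strand: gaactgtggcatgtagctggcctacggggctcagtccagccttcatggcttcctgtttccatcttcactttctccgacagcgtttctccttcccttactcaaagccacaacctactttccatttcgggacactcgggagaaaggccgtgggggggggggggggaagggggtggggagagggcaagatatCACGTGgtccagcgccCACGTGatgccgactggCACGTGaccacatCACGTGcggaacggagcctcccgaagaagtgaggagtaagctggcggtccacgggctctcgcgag
Naglu, chr11:101069844-101070143, plus strand: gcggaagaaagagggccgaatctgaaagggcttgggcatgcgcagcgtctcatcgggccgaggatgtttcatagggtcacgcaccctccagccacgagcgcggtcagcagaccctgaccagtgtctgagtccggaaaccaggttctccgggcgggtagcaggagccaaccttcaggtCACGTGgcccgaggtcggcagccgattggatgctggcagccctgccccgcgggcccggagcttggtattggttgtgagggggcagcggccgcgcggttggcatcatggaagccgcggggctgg
Mcoln1, chr8:3500269-3500568, plus strand: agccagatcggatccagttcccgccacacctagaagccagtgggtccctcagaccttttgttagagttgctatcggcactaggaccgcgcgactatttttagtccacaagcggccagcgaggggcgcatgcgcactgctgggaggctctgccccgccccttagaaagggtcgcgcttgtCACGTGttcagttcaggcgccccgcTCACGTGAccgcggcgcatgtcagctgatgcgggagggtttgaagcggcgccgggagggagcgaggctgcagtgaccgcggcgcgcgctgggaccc
Gla, chrX:134600956-134601255, minus strand: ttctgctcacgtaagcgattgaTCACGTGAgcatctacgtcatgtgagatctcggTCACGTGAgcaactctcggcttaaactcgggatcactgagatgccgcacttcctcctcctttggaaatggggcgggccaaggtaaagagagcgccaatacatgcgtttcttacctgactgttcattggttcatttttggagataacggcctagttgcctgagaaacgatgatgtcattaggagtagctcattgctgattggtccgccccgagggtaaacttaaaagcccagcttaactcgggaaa
Cd68, chr11:69666121-69666420, minus strand: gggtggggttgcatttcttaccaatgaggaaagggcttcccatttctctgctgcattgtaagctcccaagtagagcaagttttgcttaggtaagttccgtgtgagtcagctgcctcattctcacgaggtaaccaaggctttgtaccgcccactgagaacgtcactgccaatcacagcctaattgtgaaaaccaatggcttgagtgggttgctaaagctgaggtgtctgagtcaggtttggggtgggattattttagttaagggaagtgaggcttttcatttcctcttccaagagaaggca
Grn, chr11:102430257-102430556, plus strand: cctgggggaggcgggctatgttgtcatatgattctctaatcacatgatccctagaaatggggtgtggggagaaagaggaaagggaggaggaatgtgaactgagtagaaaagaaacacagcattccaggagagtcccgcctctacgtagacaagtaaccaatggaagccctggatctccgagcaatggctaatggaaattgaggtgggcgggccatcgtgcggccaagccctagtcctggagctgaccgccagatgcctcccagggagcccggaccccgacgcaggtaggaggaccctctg
The other genes with CACGTG were Cln3, Gaa, Glb1, Lgmn and Sgsh. For Cln3 (2 copies) and Lgmn (1 copy) the string lay in 1 of 2 listed promoters, and for Lgmn that start was not matched to a GENCODE M21 transcript.

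The comparison of T with WT asks how the tau transgene alters these genes when Ch25h is present. Of the 32 genes, 21 were higher in T, 0 were lower and 11 did not pass (edgeR quasi-likelihood test, Benjamini-Hochberg adjusted p below 0.05 over all 18565 genes). Over all genes tested, 13% were higher and 11.2% lower. The median log2 fold change of the 32 genes was 0.524, against -0.0133 over all genes, and values ran from -0.55 for Gaa to 3.19 for Cd68. The T libraries were all above the WT libraries for 23 of the 32 genes, against 13.3% of all genes in that direction. The 2 genes beyond the 21 were Gla and Neu1. In TPM 22 genes were separated, with Ppt1 but without Fuca1 and Neu1, against 12.9% of all genes. At an unadjusted p below 0.05, 2 genes were lower (Gaa and Smpd1), and DESeq2 called none lower. Without the 2 choroid-rich libraries 20 of the 21 were still called, all but Laptm4a. With the replicate number as a block 20 were higher and 1 lower, with the call of Laptm4a lost and Gaa called lower. In bulk tissue a larger number of cells of a type and more RNA per cell cannot be told apart.

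The comparison of TCKO with T asks how the transgenic hippocampus differs once Ch25h is missing. Here 19 of the 32 genes were lower, 0 were higher and 13 did not pass (edgeR), against 8.05% of all genes lower and 4.81% higher. The median log2 fold change was -0.508, against 0.0223 over all genes. For 19 genes every TCKO library was below every T library, against 9.65% of all genes. In TPM this held for 15 genes, against 7.68% of all genes. The reverse held in TPM for 1 gene, Gaa, against 7.36% of all genes. At an unadjusted p below 0.05, 2 genes were higher (again Gaa and Smpd1), and DESeq2 called none. The 19 called genes include Lamp1, whose libraries overlapped in CPM, and leave out Laptm4a, whose libraries did not. Both comparisons use the same 4 T libraries, so their values are given side by side and are not independent. Without the 2 choroid-rich libraries 16 of the 19 were still called, all but Idua, Manba and Tpp1. In a fit of the 8 libraries compared alone, Asah1, Glb1, Idua, Lamp1, Manba and Tpp1 were not called (adjusted p from 0.055 to 0.155).

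**Figure D1:**
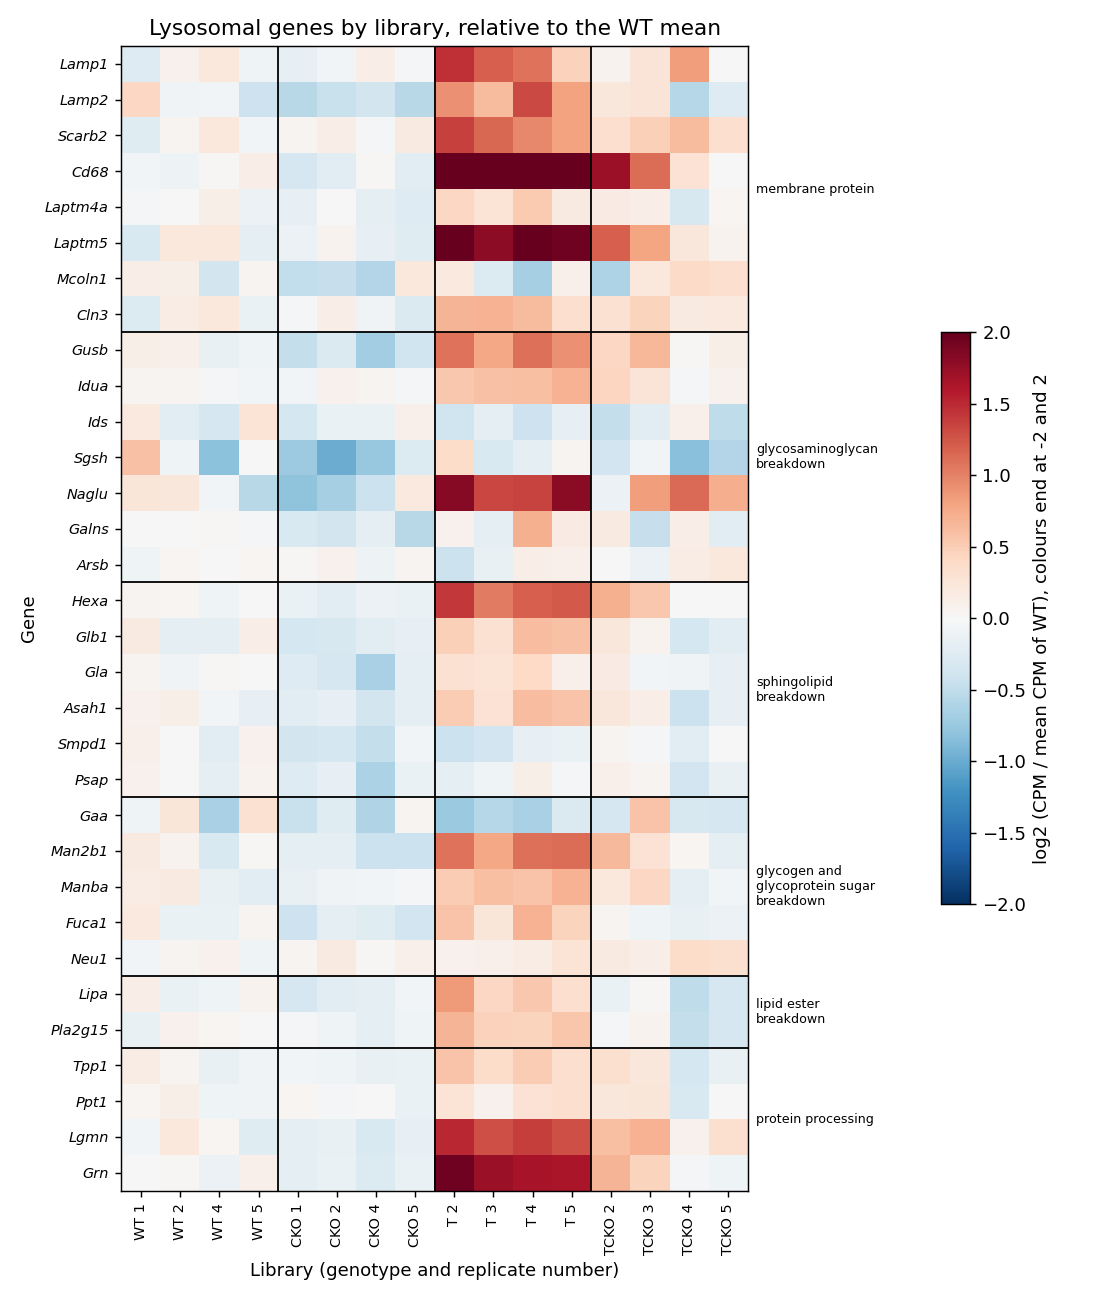
Colours give log2 of each library's CPM over the mean CPM of the 4 WT libraries, with genes in rows ordered by role and the 16 libraries in columns. The 4 T columns are red in most rows, the colours stop at 2 so that Cd68 in T is off the scale, and rows such as Ids, Arsb and Psap stay pale in T.

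Among the membrane proteins 7 of 8 rose in T and 5 fell in TCKO against T. Beside this and the counts by role below, 13% of all genes rose in T and 8.05% fell in TCKO against T. Cd68 (ENSMUSG00000018774, GRCm38 chromosome 11, 69664213 to 69666153, minus strand), a glycoprotein of macrophage and microglial lysosomes, stood at 15, 14.4, 15.7 and 17 CPM in WT and at 179, 139, 135 and 114 CPM in T. In TCKO it was at 51.1, 33.6, 18.9 and 15.5 CPM. Every T library was above every other library, and TCKO replicate 5 lay within the WT range. Cd68 rose in T by 3.19 ± 0.29 (log2 fold change ± SE, 9.12-fold, adjusted p = 1.63e-06) and fell in TCKO against T by 2.25 ± 0.27 (adjusted p = 5.73e-05). Laptm5 (ENSMUSG00000028581, chromosome 4, 130913125 to 130936141), a lysosomal protein of blood-derived and myeloid cells, was at 50.6, 72.6, 72.7 and 55.2 CPM in WT and at 294, 217, 262 and 242 CPM in T. Its TCKO libraries held 144, 109, 73.7 and 65.8 CPM. The order of the TCKO libraries was that of Cd68, and no TCKO library reached a T library. Laptm5 rose by 2.01 ± 0.2 (adjusted p = 4.09e-06) and fell by 1.37 ± 0.2 (adjusted p = 2.48e-04).

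Scarb2, the receptor that carries glucocerebrosidase to lysosomes, was at 42.2 to 57.7 CPM in WT, 87 to 129 CPM in T and 63.2 to 77.7 CPM in TCKO, and these 3 genotypes did not overlap. It rose in T by 1.08 ± 0.12 and fell in TCKO against T by 0.63 ± 0.12. Lamp1 and Lamp2 encode the major glycoproteins that line the inner face of the lysosomal membrane. Lamp1 was at 64, 81.7, 88.7 and 72.3 CPM in WT, 211, 175, 163 and 106 CPM in T and 80.2, 91.7, 137 and 76.4 CPM in TCKO. TCKO replicate 4, which was among the lowest for Cd68 and Laptm5, was the highest TCKO library for Lamp1. Lamp1 rose by 1.1 ± 0.2 in T and fell by 0.77 ± 0.2 in TCKO against T (adjusted p = 0.0165); the fall lost its call without T replicate 2, TCKO replicate 2 or TCKO replicate 5 (adjusted p from 0.0559 to 0.0724). Lamp2 rose from 158 ± 38.7 to 304 ± 64.8 CPM (0.94 ± 0.19) and was at 154 ± 40.2 CPM in TCKO (-0.98 ± 0.19 against T). Its highest libraries in WT and T were the choroid-rich ones, WT replicate 1 at 212 CPM and T replicate 4 at 396 CPM. Both calls of Lamp2 held with these left out.

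Cln3, a membrane protein mutated in juvenile Batten disease, rose from 15.9 ± 2.47 to 24 ± 2.61 CPM in T (0.59 ± 0.13) and did not pass in TCKO against T (-0.31 ± 0.13, adjusted p = 0.125). Laptm4a rose in T by 0.35 ± 0.11, from 489 ± 33.3 to 625 ± 66.8 CPM (adjusted p = 0.0267), the smallest called rise of the 21. With the replicate number as a block its adjusted p was 0.0706, and it was 0.0519 to 0.0855 without any one of WT replicates 1, 2 and 5 or T replicates 2 and 4. In TCKO against T Laptm4a stood just above the threshold (-0.34 ± 0.11, adjusted p = 0.0531); it was called without T replicate 5 or TCKO replicate 3 (0.0273 and 0.0471). Mcoln1, the mucolipin cation channel, was the membrane protein that did not pass in T against WT. It was at 20.7, 20.6, 14.7 and 19.7 CPM in WT and at 21.6, 15.6, 12 and 20.4 CPM in T, a difference of -0.13 ± 0.23 with a 95% interval from -0.62 to 0.36. Of the membrane protein promoters printed above, those of Lamp1 and Mcoln1 hold CACGTG and that of Cd68 does not.

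**Figure D2:**
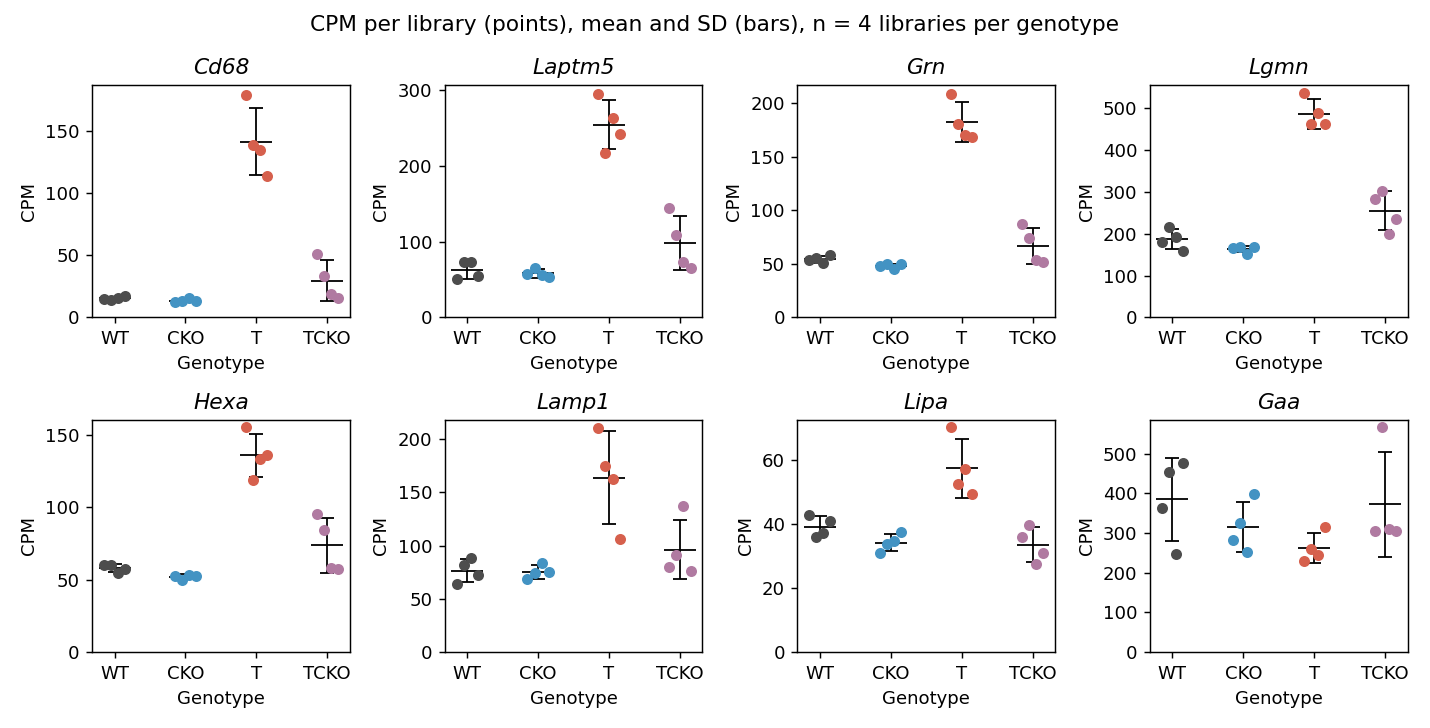
Each panel gives the CPM of a gene (vertical axis from 0) in the 4 libraries of each genotype as points, with the mean and SD as bars. For Cd68, Laptm5, Grn, Lgmn and Hexa all T points lie above all others, for Lamp1 a TCKO point at 137 CPM lies above a T point at 106 CPM, and for Gaa the WT and T points overlap.

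Enzymes of glycosaminoglycan breakdown split: 3 of 7 rose in T and the same count fell in TCKO against T. Naglu (ENSMUSG00000001751, chromosome 11, 101070012 to 101077672), which removes N-acetylglucosamine from heparan sulfate, was the least abundant gene but Sgsh in WT. It was at 5.17, 5.07, 4.21 and 2.97 CPM in WT, 15.4, 11, 11.1 and 15.2 CPM in T and 4.03, 7.76, 9.53 and 7.22 CPM in TCKO. Naglu rose by 1.6 ± 0.27 in T (adjusted p = 4.64e-04) and fell by 0.88 ± 0.26 in TCKO against T (adjusted p = 0.0362), a call lost without T replicate 2 or 5 or TCKO replicate 2 or 5 (0.0641 to 0.115). Gusb, beta-glucuronidase, was at 20 to 24 CPM in WT, 37.8 to 47.5 CPM in T and 22.5 to 34.8 CPM in TCKO. It rose by 0.98 ± 0.14 and fell by 0.65 ± 0.14. Idua, alpha-iduronidase, rose from 12.6 ± 0.476 to 19.1 ± 0.876 CPM (0.6 ± 0.11), with groups far apart for their small spread. Its fall in TCKO against T (-0.4 ± 0.11, adjusted p = 0.0199) lost the call without TCKO replicate 5 (0.0708) and without the 2 choroid-rich libraries (0.0681).

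The other 4 of this group are the sulfatases Ids, Sgsh, Galns and Arsb, and none passed in either comparison. All 3 enzymes that rose are glycosidases. Ids, which takes sulfate from iduronate, was at 60.4 ± 12.7 CPM in WT and 49.5 ± 4.5 CPM in T (-0.29 ± 0.16, 95% interval -0.62 to 0.04). Arsb averaged 67.6 ± 2.68 CPM in WT and 64.6 ± 11.2 in T, with CKO at 68.4 ± 3.83 and TCKO at 70.5 ± 7.27, and its interval for T against WT ran from -0.3 to 0.17. Galns differed by 0.24 ± 0.18 and Sgsh by 0.01 ± 0.26, with an interval from -0.54 to 0.56 for Sgsh. Sgsh ran from 3.58 to 10.7 CPM over all libraries. Sgsh acts on the same heparan sulfate chain as Naglu.

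In sphingolipid breakdown 3 of 6 rose in T and 3 fell in TCKO against T. Hexa (ENSMUSG00000025232, chromosome 9, 59539540 to 59565109), the alpha subunit of beta-hexosaminidase, was at 60, 59.8, 54.7 and 57.5 CPM in WT and at 155, 119, 133 and 136 CPM in T. Its TCKO libraries were at 95.1, 84.4, 57.9 and 57.7 CPM, the first pair between WT and T and the second pair within the WT range. Hexa rose by 1.23 ± 0.14 (adjusted p = 9.94e-06) and fell by 0.88 ± 0.14 (adjusted p = 4.51e-04). Glb1, beta-galactosidase, rose by 0.5 ± 0.13 and fell by 0.55 ± 0.13. Asah1, acid ceramidase, rose by 0.5 ± 0.12 and fell by 0.53 ± 0.12. For both, TCKO means were near those of WT: 25.3 ± 4.53 against 26.2 ± 3.52 CPM for Glb1 and 87.8 ± 17.4 against 89.9 ± 7.74 CPM for Asah1.

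Psap, Gla and Smpd1 did not pass in either comparison. Psap averaged 1466 ± 122 CPM in WT and 1425 ± 123 in T, with CKO at 1207 ± 180 and TCKO at 1385 ± 200. The T against WT difference of Psap was -0.04 ± 0.12, with an interval from -0.3 to 0.22, so a rise like that of Hexa lies outside it. Gla, alpha-galactosidase, was at 11.4 to 12.4 CPM in WT and 12.8 to 15.7 CPM in T; the groups did not overlap, but the difference of 0.27 ± 0.12 had an adjusted p of 0.11. Smpd1, acid sphingomyelinase, was at 114 ± 11.1 CPM in WT and 94.5 ± 10.2 CPM in T, a difference of -0.27 ± 0.11 (adjusted p = 0.0816), which was called lower without WT replicate 4 (0.04). In TCKO Smpd1 was at 111 ± 8.52 CPM.

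Of the enzymes that take sugars from glycogen and glycoproteins, 3 of 5 rose in T and 3 fell in TCKO against T. Man2b1, acid alpha-mannosidase, was at 38, 35.3, 27.3 and 34.2 CPM in WT, 71.7, 57.5, 72.7 and 73.5 CPM in T and 52.7, 41, 34.5 and 29.9 CPM in TCKO. It rose by 1.03 ± 0.15 and fell by 0.8 ± 0.15. Manba, beta-mannosidase, which cleaves the next mannose linkage, rose by 0.59 ± 0.14 and fell by 0.48 ± 0.14 (adjusted p = 0.0318). Each of the 4 T libraries and TCKO replicates 2, 4 and 5 ended the call of that fall when left out (0.0507 to 0.103). Fuca1, alpha-fucosidase, rose by 0.5 ± 0.1 and fell by 0.57 ± 0.11, from 71 ± 7.91 CPM in WT to 100 ± 13.3 in T and 67.7 ± 4.35 in TCKO. Neu1, the sialidase, ran from 29.1 to 32.7 CPM in WT and 32.8 to 37.4 CPM in T, a small difference that did not pass (0.15 ± 0.08, adjusted p = 0.209). Its libraries did not overlap in CPM but did in TPM (16.4 to 20.6 in WT, 18.4 to 22.9 in T).

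Gaa (ENSMUSG00000025579, chromosome 11, 119267887 to 119285454), the acid alpha-glucosidase that degrades glycogen, went numerically the other way. It was at 362, 454, 246 and 476 CPM in WT, 230, 259, 244 and 315 CPM in T and 306, 568, 309 and 304 CPM in TCKO. The WT libraries spread widely, and WT replicate 4 lay within the T range. T and TCKO libraries overlapped in CPM, whereas in TPM every TCKO library (134 to 256) lay above every T library (97.3 to 133). Gaa differed by -0.55 ± 0.22 in T against WT (adjusted p = 0.085) and by 0.5 ± 0.22 in TCKO against T (adjusted p = 0.152). With the replicate number as a block it was called lower in T (-0.66 ± 0.19, adjusted p = 0.0312), as it was without WT replicate 4 (0.0238) or TCKO replicate 3 (0.0456).

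Both lipid ester hydrolases rose in T and fell in TCKO. Lipa (ENSMUSG00000024781, chromosome 19, 34492318 to 34527474, minus strand), the acid lipase that frees cholesterol from cholesteryl esters, lies 17154 bases from Ch25h, the knocked-out gene. The WT libraries held 42.7, 35.9, 37 and 41 CPM of Lipa and the T libraries 70.3, 52.4, 57.1 and 49.2 CPM. Lipa in the knockouts was 31, 33.7, 34.5 and 37.5 CPM (CKO) and 35.8, 39.7, 27.4 and 31 CPM (TCKO). T stood above all other groups, and TCKO and CKO covered much the same range. Lipa rose by 0.55 ± 0.13 in T (adjusted p = 0.0052) and fell by 0.77 ± 0.13 in TCKO against T (adjusted p = 6.72e-04). Pla2g15, the lysosomal phospholipase, averaged 22.5 ± 1.51 CPM in WT and 32.8 ± 2.49 in T, with CKO at 21.1 ± 0.999 and TCKO at 20 ± 3.49. It rose by 0.54 ± 0.11 and fell by 0.71 ± 0.12, and its T libraries (30.7 to 36.1 CPM) were clear of all others.

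Among the 4 proteins of protein processing, 3 rose in T and 3 fell in TCKO against T. Grn (ENSMUSG00000034708, chromosome 11, 102430315 to 102437048), which encodes progranulin, the secreted and lysosomal precursor of the granulins, was at 54.1, 55.1, 50.5 and 58.3 CPM in WT and at 209, 181, 170 and 169 CPM in T. In TCKO it was at 87.5, 73.9, 53.9 and 51.6 CPM. The last 2 TCKO libraries fell within the WT range. Grn rose by 1.74 ± 0.14 (3.35-fold, adjusted p = 8.68e-07) and fell by 1.45 ± 0.14 (adjusted p = 1.42e-05). Lgmn, the asparaginyl endopeptidase that also matures cathepsins, was at 181, 216, 193 and 159 CPM in WT, 535, 460, 487 and 460 CPM in T and 283, 302, 198 and 235 CPM in TCKO. It rose by 1.38 ± 0.12 and fell by 0.93 ± 0.12, and the lowest T library lay above every TCKO library.

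Tpp1, a tripeptidyl peptidase, rose by 0.45 ± 0.12 and fell by 0.41 ± 0.12 (adjusted p = 0.0374). The fall of Tpp1 was lost without any one of CKO replicates 1, 4 and 5, T replicates 2, 3 and 4 or TCKO replicates 4 and 5 (0.0518 to 0.122). Ppt1, a palmitoyl-protein thioesterase, was at 161 ± 10.7 CPM in WT and 192 ± 14.2 CPM in T and did not pass (0.25 ± 0.11, adjusted p = 0.095), though it was called without TCKO replicate 4 (0.0185). Of the 32 genes, 9 share exon sequence with a neighbour in GENCODE M21: Arsb, Cln3, Grn, Hexa, Idua, Lamp1, Ppt1 and Sgsh with a gene on the opposite strand and Glb1 with Tmppe on its own. No source used here says whether counting used strand, so part of their reads could belong to the neighbour.

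The comparison of TCKO with CKO addresses what the transgene changes where Ch25h is absent. Here 2 of the 32 genes were called higher, Gusb and Lgmn, and 0 lower (edgeR), against 0.35% of all genes higher and 0.189% lower. DESeq2 called 8 higher and 0 lower. Values lay above zero for 29 of 32 genes, with a median log2 fold change of 0.253, against 9606 of 18565 and 0.0132 over all genes. Gusb was at 15.9, 18.1, 13.7 and 16.8 CPM in CKO and 29.4, 34.8, 22.5 and 23.9 CPM in TCKO, a rise of 0.78 ± 0.14 (adjusted p = 0.024). Lgmn was at 166, 169, 151 and 167 CPM in CKO and 283, 302, 198 and 235 CPM in TCKO, a rise of 0.64 ± 0.12 (adjusted p = 0.0265). Neither overlapped, but both calls rested on single libraries. The call for Gusb needed each of CKO replicates 1, 2 and 4 and TCKO replicates 2 and 3 (0.051 to 0.0953 without 1 of them), and that for Lgmn each of the 4 CKO libraries and TCKO replicates 2 and 3 (0.0612 to 0.102 without 1 of them).

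Of all 32 genes, 10 had TCKO libraries that were all above the CKO libraries, against 5.32% of all genes. In TPM there were 4 such genes, against 3.49% of all genes. At an unadjusted p below 0.05, 14 were higher. Cd68 had the highest value, 1.13 ± 0.27 (adjusted p = 0.0673), with TCKO libraries from 15.5 to 51.1 CPM against 12.3 to 15.8 CPM in CKO. It was called without TCKO replicate 4 or 5 (0.0341 and 0.0175). Naglu (1.08 ± 0.27), Laptm5 (0.75 ± 0.2), Man2b1 (0.53 ± 0.15), Hexa (0.5 ± 0.14) and Grn (0.47 ± 0.14) followed. Their adjusted p ran from 0.0745 to 0.104, and each was called without 1 or both of TCKO replicates 4 and 5, or for Naglu without TCKO replicate 2 (0.0351 to 0.0486). Without TCKO replicate 4 the count called was 5 and without TCKO replicate 5 it was 7, and it was 0 without CKO replicate 1, 2 or 4 or TCKO replicate 3. The lipid ester pair lay near zero: Lipa was at -0.03 ± 0.13 (95% interval -0.3 to 0.24) and Pla2g15 at -0.08 ± 0.12 (-0.32 to 0.17). Ids (-0.14 ± 0.16) was the only other gene below zero.

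The interaction tests whether the change with the transgene differs between mice with and without Ch25h. It was called for 6 of the 32 genes, all with a smaller change where Ch25h was absent, and for 0 in the other direction (edgeR), against 2.45% of all genes lower and 0.695% higher. At an unadjusted p below 0.05, 11 were lower and 2 higher, and DESeq2 called 1 higher. Cd68 differed by -2.06 ± 0.38 (adjusted p = 0.00771), 3.19 ± 0.29 with Ch25h against 1.13 ± 0.27 without. Grn differed by -1.27 ± 0.19 (adjusted p = 0.0034), 1.74 ± 0.14 against 0.47 ± 0.14. Both calls held without any single library and under every other setting tried. Laptm5 (-1.26 ± 0.28, adjusted p = 0.0227), Lgmn (-0.74 ± 0.17, 0.0271), Scarb2 (-0.71 ± 0.17, 0.0338) and Pla2g15 (-0.62 ± 0.16, 0.0483) did not pass without the 2 choroid-rich libraries (0.0813, 0.0942, 0.0638 and 0.124). They were also lost without single libraries. Without WT replicate 5, CKO replicate 2 or T replicate 2 the count was 2, and without CKO replicate 1 or 5 or TCKO replicate 5 it was 3. Laptm5 was lost without WT replicate 5, CKO replicate 2 or T replicate 2 (0.0528 to 0.0566), Lgmn also without CKO replicate 1 or 5 or TCKO replicate 5 (0.0522 to 0.0663), Scarb2 without 10 of the 16 libraries (0.0543 to 0.0755) and Pla2g15 without 12 of them (0.0611 to 0.112).

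**Figure D3:**
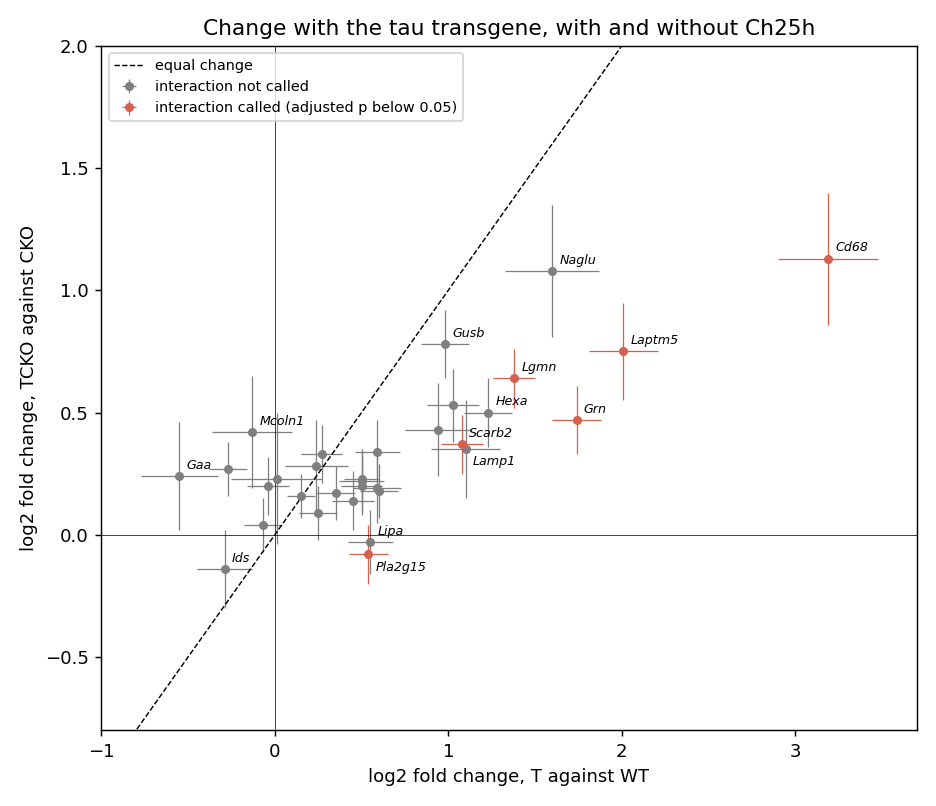
Points are the 32 genes, placed by their log2 fold change in T against WT (horizontal) and in TCKO against CKO (vertical), with SE bars and a dashed line of equal change. The 6 genes with a called interaction are red and lie below the line, Gusb and Naglu lie nearer to it, and Lipa and Pla2g15 lie at about zero on the vertical axis.

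For the other genes the difference was not called. Gusb differed by -0.2 ± 0.19, with an interval from -0.61 to 0.21, and Hexa stood just above the threshold (-0.73 ± 0.2, adjusted p = 0.0538), called by DESeq2 (0.0147), with no filter on low counts (0.0381) and without T replicate 5 or TCKO replicate 2 or 3 (0.0111 to 0.0491). Lipa differed by -0.58 ± 0.18 (adjusted p = 0.0886), called by DESeq2 (0.0469) and without T replicate 5 (0.0458). Lamp1 differed by -0.74 ± 0.28 (adjusted p = 0.151) and was called without T replicate 5 or TCKO replicate 4 (0.0327 and 0.0361). Smpd1 had the opposite sign (0.53 ± 0.15, adjusted p = 0.066) and was called by DESeq2 (0.0355) and without WT replicate 4, CKO replicate 5 or T replicate 5 (0.0366 to 0.0441). Its mean CPM was 114 in WT and 111 in TCKO, with lower means in CKO (92) and T (94.5).

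The comparison of CKO with WT addresses the loss of Ch25h without the transgene. None of the 32 genes was called in either direction by edgeR or by DESeq2, against 0% of all genes higher and 0.0108% lower. At an unadjusted p below 0.05, 7 were lower and 0 higher. Values were below zero for 28 genes, with a median log2 fold change of -0.192 against -0.0143 over all genes, and the median was -0.226 without the 2 choroid-rich libraries. For 7 genes every CKO library was below every WT library (Gusb, Galns, Hexa, Gla, Asah1, Fuca1 and Grn), against 4.06% of all genes. Both counts depend on the scale, CPM here. In the deposited TPM the CKO mean was lower for 22 members and higher for 10, the libraries of Gusb alone were still separated, and 12515 of the 18565 genes had a higher mean in CKO. Gusb was at 24, 23.6, 20 and 20.7 CPM in WT and 15.9, 18.1, 13.7 and 16.8 CPM in CKO, a difference of -0.45 ± 0.14 (adjusted p = 0.311) with an interval from -0.74 to -0.16. Hexa was at 54.7 to 60 CPM in WT and 49.5 to 53.5 CPM in CKO (-0.15 ± 0.14). Psap, the most abundant of the genes, was at 1548, 1480, 1289 and 1546 CPM in WT and 1228, 1315, 946 and 1337 CPM in CKO (-0.28 ± 0.12, adjusted p = 0.413). Lipa, the neighbour of Ch25h, differed by -0.2 ± 0.13, with an interval from -0.47 to 0.08.

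Other lysosomal gene lists are given for comparison. Over all genes, 13% rose and 11.2% fell in T against WT, and 4.81% rose and 8.05% fell in TCKO against T. Of 22 other hydrolases and activators, 14 rose and 1 fell in T against WT, with rises of Npc2, the sterol carrier of the lumen (1.45 ± 0.14), and of the exonuclease Pld4 (1.92 ± 0.2). In TCKO against T 14 of them fell and 1 rose, and 9 to 14 fell when single libraries were left out. Of 25 other membrane proteins and transporters, 9 rose and 0 fell in T, with Cd63 (2.16 ± 0.22), Slc29a3 (1.09 ± 0.13) and Slc15a3 (2.87 ± 0.41), and 6 fell in TCKO against T. Of 13 cathepsins, the proteases of the same lumen, 11 rose and 0 fell in T and 10 fell in TCKO against T. Of 19 subunits and accessory proteins of the vacuolar proton pump, which acidifies the lumen, 3 rose and 12 fell in T, and 3 rose and 3 fell in TCKO against T. The count of 12 was 2 without the 2 choroid-rich libraries and 6 to 14 when single libraries were left out. The 3 rises in TCKO against T were 0 without the choroid-rich libraries and 0 to 9 with single libraries left out.

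Among 24 tested genes of lysosome biogenesis and enzyme delivery, 6 rose and 2 fell in T against WT (3 to 7 and 0 to 2 when single libraries were left out). The shares over all genes were 13% and 11.2%. Tfeb, the transcription factor that drives lysosomal genes, rose from 2.92 ± 1.18 to 11.7 ± 3.57 CPM (1.99 ± 0.29, adjusted p = 1.16e-04), and its relative Tfe3 from 13.8 ± 1.26 to 21.8 ± 1.07 CPM (0.66 ± 0.16). Nagpa, which uncovers the mannose phosphate tag of hydrolases, rose by 1.5 ± 0.26. In TCKO against T 2 of the 24 fell, a share close to the 8.05% of all genes: Mitf, of the same factor family as Tfeb (-0.9 ± 0.23, lost without T replicate 4 at 0.0521), and Nagpa (-0.83 ± 0.25, adjusted p = 0.0396, lost without T replicate 2, 3 or 4 or TCKO replicate 2, 3 or 4). Tfeb was at 6.78 ± 1.6 CPM in TCKO, which did not pass against T (-0.78 ± 0.28, adjusted p = 0.0753). Against CKO (2.63 ± 0.406 CPM) it was called higher (1.37 ± 0.29, adjusted p = 0.0453), a call lost without any one of WT replicate 4, the 4 CKO libraries, T replicates 3 and 4 or TCKO replicates 3, 4 and 5 (0.0519 to 0.139, a range that includes the fit with a replicate block).

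**Figure D4:**
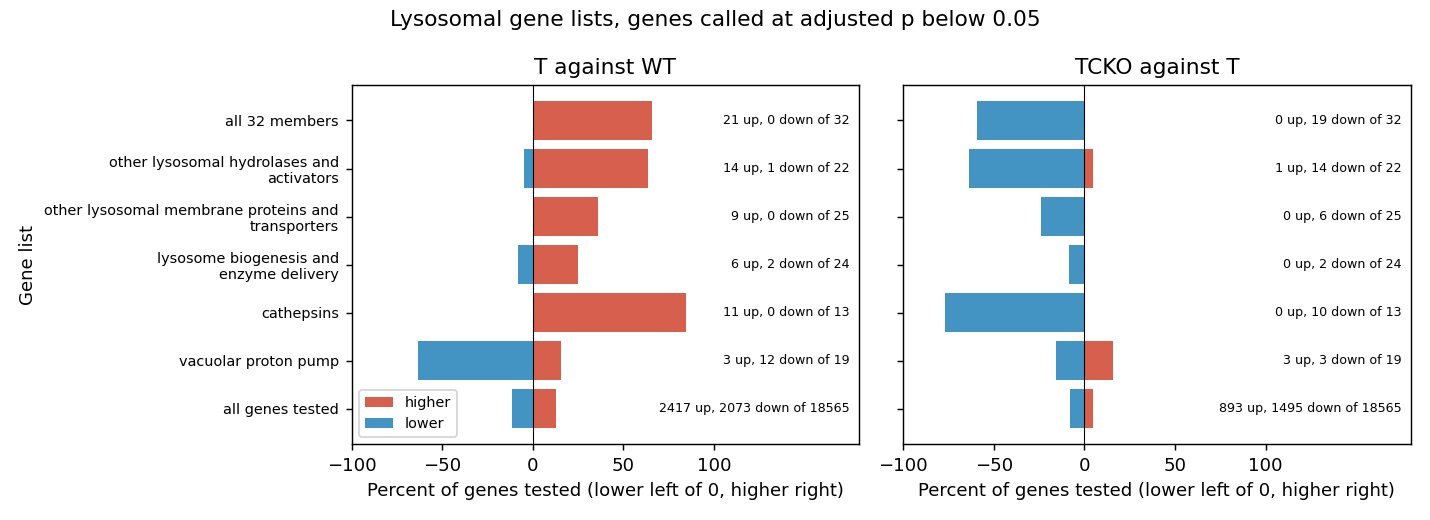
Bars give the percent of tested genes called higher (right of 0) and lower (left of 0) in each lysosomal list and over all genes, for T against WT and for TCKO against T, with counts printed beside them. The 32 genes, the other hydrolases and the cathepsins point to the right in the first panel and to the left in the second, while the proton pump points mostly to the left in the first.

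Markers of several cell types differed between the same genotypes. The 14 microglial markers summed to 492 ± 71.8 CPM in WT (430 to 560), 473 ± 15.3 CPM in CKO (462 to 495), 1660 ± 192 CPM in T (1505 to 1940) and 701 ± 179 CPM in TCKO (554 to 918). Of these 14, 13 were higher in T against WT and 11 lower in TCKO against T, against 13% and 8.05% of all genes. In TCKO the microglial sums were 918, 777, 555 and 554 CPM in replicates 2 to 5, the last pair nearly equal. Cd68, Laptm5, Grn, Hexa, Man2b1 and Gla also fell in CPM from replicate 2 to replicate 5. The other members stood in other orders. Several of them still had TCKO replicates 2 and 3 above replicates 4 and 5, as the microglial sums did. Examples are Lgmn (283, 302, 198 and 235 CPM) and Lipa (35.8, 39.7, 27.4 and 31 CPM). Lamp1, Scarb2 and Naglu did not show this split. The 11 astrocyte markers summed to 6437 ± 337 CPM in WT (6121 to 6837), 5519 ± 312 in CKO (5208 to 5842), 13861 ± 1560 in T (11615 to 15226) and 7479 ± 1487 in TCKO (5916 to 9057), with 5 of them higher in T and 6 lower in TCKO against T. The 12 neuronal markers summed to 12062 ± 465 CPM in WT and 8636 ± 1626 in T, with CKO at 13045 ± 568 and TCKO at 12368 ± 1766. Oligodendrocyte markers had another pattern: they summed to 3677 to 16206 CPM in WT, 5474 to 9195 in CKO, 10461 to 22827 in T and 13919 to 18315 in TCKO, and 0 of 11 were lower in TCKO against T.

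The 10 markers of border macrophages and monocytes stood at 11.8 ± 1.58 CPM in WT (10.1 to 13.8), 8.04 ± 2.7 in CKO (4.22 to 10.3), 31.1 ± 14.4 in T (17.7 to 50.8) and 7.62 ± 1.02 in TCKO (6.63 to 8.62). Of these 10, only 3 were called higher in T against WT and 5 lower in TCKO against T. The shares over all genes were 13% and 8.05%. The highest T value, 50.8 CPM, was that of the choroid-rich T replicate 4. Without the choroid-rich libraries the counts were 2 and 3. The 10 T cell markers stood at 5.48 ± 0.438 CPM in WT (5.13 to 6.1), 5.43 ± 1.06 in CKO (4.3 to 6.81), 22.5 ± 4.79 in T (17.8 to 29) and 6.12 ± 1.64 in TCKO (4.64 to 8.11), with Cd3d at 0 in CKO. No marker on the microglial list is among the 32 genes. The part of these cell types in the changes of the lysosomal genes was not tested.

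**Figure D5:**
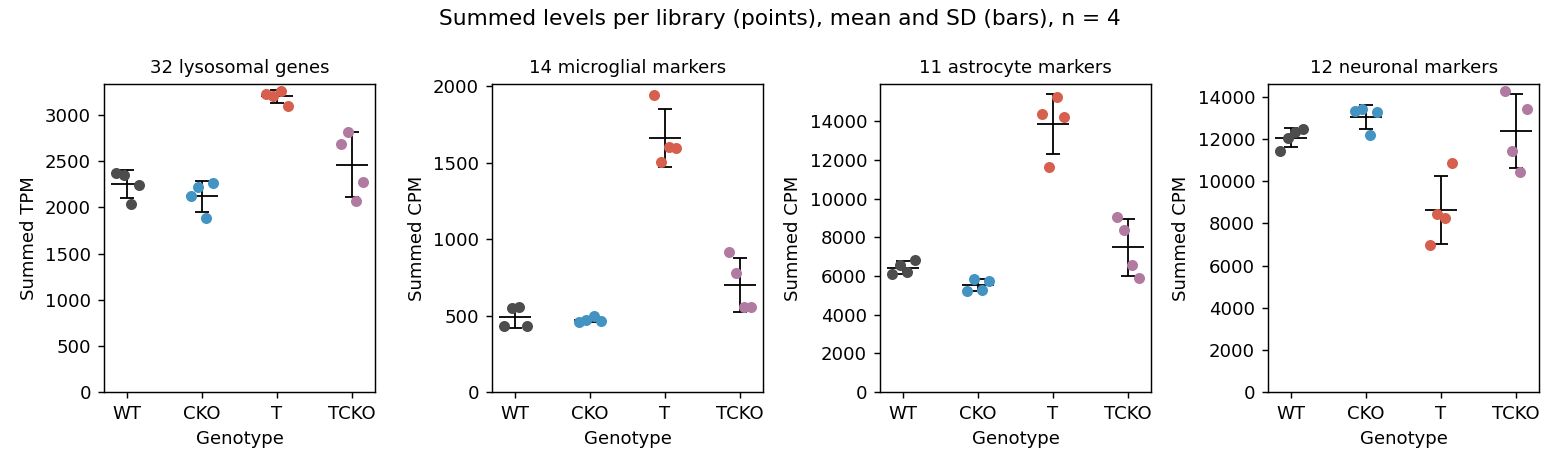
Points are single libraries by genotype, with mean and SD bars, for the summed TPM of the 32 lysosomal genes and the summed CPM of 14 microglial, 11 astrocyte and 12 neuronal markers, each axis from 0. The lysosomal, microglial and astrocyte sums are highest in all 4 T libraries, and the neuronal sums are lowest on average in T, at 8636 CPM.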

How the data were processed

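RNA of 16 mouse hippocampus libraries, made with an oligo-dT kit, was sequenced. The members and gene lists were chosen with earlier results of these data known. The deposited table of the series holds estimated counts per gene, which the authors made before deposit, and files of single samples hold TPM, per the file headers. All 887792 estimated counts of the single-sample files equalled the deposited table within 0.01 reads. The submitters' processing notes name bcl2fastq, STAR 2.5.1a, Subread, featureCounts 1.4.6-p5 and GRCm38. Which tool estimated the counts, its annotation and its strand setting are not given in the sources used here. Of values above 0, 74.5% were whole, and all were rounded to whole numbers here. The 55774 lines were reduced to 55487 genes by dropping 287 repeats.

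All 16 libraries entered a single fit with a mean per genotype (edgeR 4.0.16, R 4.3.3: filterByExpr, TMM scaling, quasi-likelihood F test, Benjamini-Hochberg adjustment over all 18565 genes tested). The SE is the size of the log2 fold change over the square root of F. The code was tested on simulated data. Alternatives were DESeq2 1.42.0, DESeq2-type size factors in edgeR, no filter on low counts, the 8 libraries compared alone, the replicate number as a block, each library left out, and both choroid-rich libraries left out (the last chosen after seeing the data, as was a look at the counts of separated libraries in TPM). Deviations from genotype means correlated at 0.12, 0.14 and 0.3 between WT and T libraries of the same number. For CKO and WT the values were -0.05, 0.02, 0.17 and 0.27. They were -0.08, -0.14, -0.13 and 0.17 for TCKO and T, and -0.03, -0.02 and 0.04 for TCKO and CKO. Libraries of unlike number were not compared, and the labels do not say that equal numbers mark pairs. The main fit took no pairs, and the block is given only as an alternative. The text names all 32 members, Ch25h, Mapt and Prnp, and up to 3 genes by smallest p from each other lysosomal list (1 of these is not reported here); Tfeb, Mitf and Nagpa are given in further comparisons for context. Totals of 15064309 to 34348284 reads limit the precision of genes of low count.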

Additional observations from a re-analysis of the deposited data

Results flagged for a closer look

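Within a genotype, 5 single libraries stood far from the other 3 for a gene, by the ratio of the gap to the whole range. Mcoln1 was low at 14.7 CPM in WT replicate 4 and high at 21.9 CPM in CKO replicate 5. Gaa was high at 568 CPM in TCKO replicate 3, Man2b1 low at 57.5 CPM in T replicate 3, and Lgmn low at 151 CPM in CKO replicate 4. Chance gives such a gap in about 1 of 20 groups, and 128 combinations of gene and genotype were looked at.

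The change with the transgene differed between mice with and without Ch25h, by the test of the interaction, for 6 genes. The log2 difference was -2.06 for Cd68, -1.27 for Grn, -1.26 for Laptm5, -0.74 for Lgmn, -0.71 for Scarb2 and -0.62 for Pla2g15. Only the calls of Cd68 and Grn held without the 2 choroid-rich libraries. Those of Laptm5, Lgmn, Scarb2 and Pla2g15 were lost there and also without some single libraries.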

How the results depend on the processing

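For single members, 3358 values under all alternatives, the one chosen after seeing the data included, kept their side of the threshold. A further 39 came past it and 91 no longer passed. Of the values called in the main fit or in the alternative, 0 reversed direction. Changes of sign between values called in neither fit were not counted apart and lie among the 3358. With single libraries left out, the members called were 20 to 22 higher and 0 to 2 lower in T against WT, 14 to 20 lower in TCKO against T, 0 to 7 higher in TCKO against CKO, and 0 to 1 higher and 2 to 9 lower for the interaction. Members higher in TCKO against CKO numbered 8 by DESeq2, 4 with no filter on low counts and 0 with the replicate block. For the interaction DESeq2 called 1 member higher, and 2 were lower without the choroid-rich libraries. The replicate block rests on libraries known only to share a number. In T against WT it gave 1 member lower (Gaa) and 20 higher. The block in edgeR ended the call of Naglu in TCKO against T (adjusted p = 0.0675). It also ended the calls of Gusb and Lgmn in TCKO against CKO (0.0809 and 0.0877) and left the 6 interaction calls in place.

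Over all genes, single libraries left out gave 1772 to 2700 higher and 1162 to 2483 lower in T against WT, 0 to 4 and 0 to 3 in CKO against WT, 282 to 1483 and 1012 to 1795 in TCKO against T, 10 to 166 and 1 to 110 in TCKO against CKO, and 38 to 541 and 248 to 725 for the interaction. DESeq2 called 55 higher and 59 lower in CKO against WT, 507 and 267 in TCKO against CKO, and 392 and 882 for the interaction. No filter gave 1254 lower in T against WT, 477 higher in TCKO against T, and 184 higher and 68 lower in TCKO against CKO. The 8 libraries compared alone gave 1380 lower in T against WT, 1 lower in CKO against WT, 202 higher in TCKO against T, and 187 higher and 114 lower in TCKO against CKO. Without the choroid-rich libraries 882 were lower in T against WT, 5 higher in CKO against WT, 404 higher in TCKO against T and 52 higher for the interaction. With the replicate block 0 were lower in CKO against WT, and 4 higher and 1 lower in TCKO against CKO. The causes of these shifts were not tested.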
